A study of Mus musculus with 4 samples.

Results

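The perilipins Plin1, Plin2, Plin3, Plin4 and Plin5, the lipases Lipe and Pnpla2, the cholesterol acyltransferase Soat1, and the lipid uptake genes Cd36 and Lpl were followed across the cell classes of the mouse ovary. These 10 genes, of 32285 in the count matrices, were chosen by name as genes of the lipid droplet surface, of droplet lipolysis and ester storage, and of lipid uptake, not by a limit on their measured values, and all 10 had unique molecular identifier (UMI) counts in all 4 libraries. Single-cell RNA sequencing (10x Genomics 3′ chemistry) was carried out on ovaries of littermate female mice aged 8 weeks whose vaginal smears showed estrus. The control libraries, Fosl2F/F 1 and Fosl2F/F 2, came from mice with both Fosl2 alleles floxed and no Cre. The other libraries, Fosl2cKO 1 and Fosl2cKO 2, came from mice with the same floxed alleles and a Cre transgene driven by Cyp19a1, the aromatase gene of granulosa cells (GCs), so that excision was directed to GCs. Fosl2 encodes a subunit of the AP-1 transcription factor. All libraries carried the floxed alleles, and none came from mice with the Cre alone. The n of 2 given for each condition matches 1 mouse a library, but whether any animals were pooled is not given in the sources used here, so p-values measure the spread between these libraries.

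Lipid droplets store neutral lipid in a core of cholesteryl esters and triacylglycerols enclosed by a phospholipid monolayer, and perilipins coat that surface and control the access of lipases. Steroid-producing cells of the ovary draw on droplet cholesteryl esters as a source of cholesterol for steroid synthesis. Soat1 forms the esters, Lipe (hormone-sensitive lipase) hydrolyses cholesteryl esters and diacylglycerols, and Pnpla2 (adipose triglyceride lipase) begins the hydrolysis of triacylglycerols. Cd36 is a scavenger receptor that takes up fatty acids and oxidized lipoproteins, and Lpl (lipoprotein lipase) releases fatty acids from circulating lipoproteins.

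The genes lie on chromosomes 1, 4, 5, 7, 8 and 17 of GRCm38. Plin4 (chr17:56100591-56109803) and Plin5 (chr17:56111601-56117596) are neighbours on the minus strand with 1797 bases and no annotated gene between them, and Plin3 (chr17:56277476-56292873) lies on the same strand of that chromosome. Plin1 (chr7:79720218-79732903, minus strand), Lipe (chr7:25379527-25398710, minus strand) and Pnpla2 (chr7:141455198-141460743, plus strand) are on chromosome 7, and the others are Plin2 (chr4:86648386-86670060, minus strand), Soat1 (chr1:156424525-156474331, minus strand), Cd36 (chr5:17781690-17888801, minus strand) and Lpl (chr8:68880491-68907448, plus strand). On the other strand, the antisense gene 4732471J01Rik spans the whole of Lipe, Hdgfl2 overlaps Plin4 by 17 bases, and Gm37648, which has no row in the count matrices, overlaps Soat1 by 2563 bases, so counts of these genes would be open to doubt if reads had been assigned without regard to strand.

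The 250 bases before the RefSeq start sites (GRCm38.p6) of Plin4, Plin5, Plin1 and Plin2 are shown. They were chosen because the neighbours Plin4 and Plin5 were both highest in luteal cells, whereas Plin1 was highest in theca cells and Plin2 in macrophages. Plin5 has a pair of annotated starts, and the windows before them lie end to end. Sequences run 5′ to 3′ toward the start site, and capitals mark an AP-1 motif (TGACTCA).
Plin4, chr17:56109783-56110032, minus strand: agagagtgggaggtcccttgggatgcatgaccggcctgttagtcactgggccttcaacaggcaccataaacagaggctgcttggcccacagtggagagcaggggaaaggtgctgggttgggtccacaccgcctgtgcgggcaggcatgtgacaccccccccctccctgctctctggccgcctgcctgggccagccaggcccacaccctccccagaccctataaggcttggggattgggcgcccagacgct
Plin5, upstream start, chr17:56117549-56117798, minus strand: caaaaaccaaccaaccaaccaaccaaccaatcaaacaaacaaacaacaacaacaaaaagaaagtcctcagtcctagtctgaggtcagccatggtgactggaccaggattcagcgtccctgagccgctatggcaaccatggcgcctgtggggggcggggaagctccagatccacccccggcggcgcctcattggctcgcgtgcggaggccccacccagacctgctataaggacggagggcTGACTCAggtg
Plin5, downstream start, chr17:56117299-56117548, minus strand: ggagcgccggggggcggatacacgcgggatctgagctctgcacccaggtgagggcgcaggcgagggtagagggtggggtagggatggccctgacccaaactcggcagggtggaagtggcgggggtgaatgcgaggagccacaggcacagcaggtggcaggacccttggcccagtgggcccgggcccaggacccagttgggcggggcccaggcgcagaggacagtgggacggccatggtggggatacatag
Plin1, chr7:79732777-79733026, minus strand: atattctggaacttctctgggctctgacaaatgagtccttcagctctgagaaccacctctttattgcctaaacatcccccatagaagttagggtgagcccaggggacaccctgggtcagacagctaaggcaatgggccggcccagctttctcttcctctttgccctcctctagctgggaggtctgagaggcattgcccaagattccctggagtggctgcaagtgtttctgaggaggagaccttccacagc
Plin2, chr4:86670060-86670309, minus strand: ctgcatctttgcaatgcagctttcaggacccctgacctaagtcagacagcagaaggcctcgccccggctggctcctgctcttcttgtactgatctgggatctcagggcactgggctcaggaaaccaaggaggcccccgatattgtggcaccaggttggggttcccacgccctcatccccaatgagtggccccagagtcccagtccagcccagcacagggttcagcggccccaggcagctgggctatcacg

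The search took 4 motifs and both strands of 11 such windows, which covered 9 of the 10 genes, and Lpl was not among them. The motifs were TGANTCA for AP-1, the complex to which the Fosl2 protein belongs, CAAGGTCA for steroidogenic factor 1, TTGCNNCAA for C/EBP factors, and the DR1 element of nuclear receptors, a direct repeat of AGGTCA with 1 base between the copies. The only match was the AP-1 motif 11 to 5 bases before the upstream start of Plin5. TGANTCA was found in 6.73% of 32536 windows of the same length over all genes, the steroidogenic factor 1 letters in 1.33%, the C/EBP letters in 1.75% and DR1 in 0.0338%. A match in this window is a description of the letters and does not show binding.

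Levels are given in CPM, the UMIs of a gene in all cells of a class scaled to 1000000 UMIs of that class in the same library, and values for 4 libraries follow the order Fosl2F/F 1, Fosl2F/F 2, Fosl2cKO 1, Fosl2cKO 2. Means over the 4 libraries are given with SD, n = 4. Because clusters were formed from the same cells, levels between classes are descriptions without a test, and classes with ranges over libraries that overlap are not called different. The 3′ counts of one gene are not compared with those of another.

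The matrices held 8654 to 28155 barcodes and 120327227 to 148836173 UMIs per library, and 41538 cells passed the filters and the removal of predicted doublets. Fosl2F/F 2 stood apart, with 19575 cells at a median of 3654 UMIs against 6760 to 8150 cells at medians of 11187 to 12479 in the other libraries. It had the most Plin4 over all cells (42.2 CPM, against 4.95 to 12.7 elsewhere), the highest Plin4 outside luteal cells in most classes, and 15.7 CPM even in NK or T-like cells, so low Plin4 and Plin5 levels in other classes of that library cannot be told apart from free RNA of luteal cells. Pairs of libraries shared 15 to 81 barcodes (0.17% to 0.76% of the smaller library). Fosl2, read first as a check of the labels, stood at 160.5, 166.7, 166.9 and 114.7 CPM in GC-like cells of Fosl2F/F 1, Fosl2F/F 2, Fosl2cKO 1 and Fosl2cKO 2 (log2 fold change -0.25, SE 0.20, edgeR adjusted p = 0.99997). The level was thus not lower in Fosl2cKO 1 than in the controls, and the libraries are named by their labels below. Within GC-like cells, the Fosl2 log2 fold change was -0.09 (SE 0.33) in mural-like, -0.08 (SE 0.25) in cumulus-like and -0.04 (SE 0.28) in atretic-like GCs. Which exons the 3′ tags of Fosl2 fell in was not checked. Cells were clustered without the 10 genes and the other lipid genes examined, and 26 of 27 clusters were named from fixed marker genes. The unnamed cluster held shallow cells, with medians of 1359 to 2607 UMIs in the libraries. It is left out of the comparisons of classes unless it is mentioned. A library had 2201 to 6623 GC-like cells, 325 to 2001 steroidogenic interstitial, 170 to 1183 luteal-like, 149 to 797 theca-like and 212 to 612 macrophage-like cells.

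The genes differed in the class in which they were highest, and some shared it. Plin1 was highest in theca-like cells, Plin4 and Plin5 in luteal-like cells, and Plin2, Cd36 and Lpl in macrophage-like cells, whereas Plin3 was spread over nearly all classes. Soat1 was highest in epithelial-like cells and then in theca-like, steroidogenic interstitial and luteal-like cells, and Lipe and Pnpla2 had no single class that stood apart. GC-like cells, the class to which excision was directed, were not the highest class for any of the 10 genes. Whether excision also reached cells of other classes, luteal-like cells among them, was not tested.

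**Figure D1:**
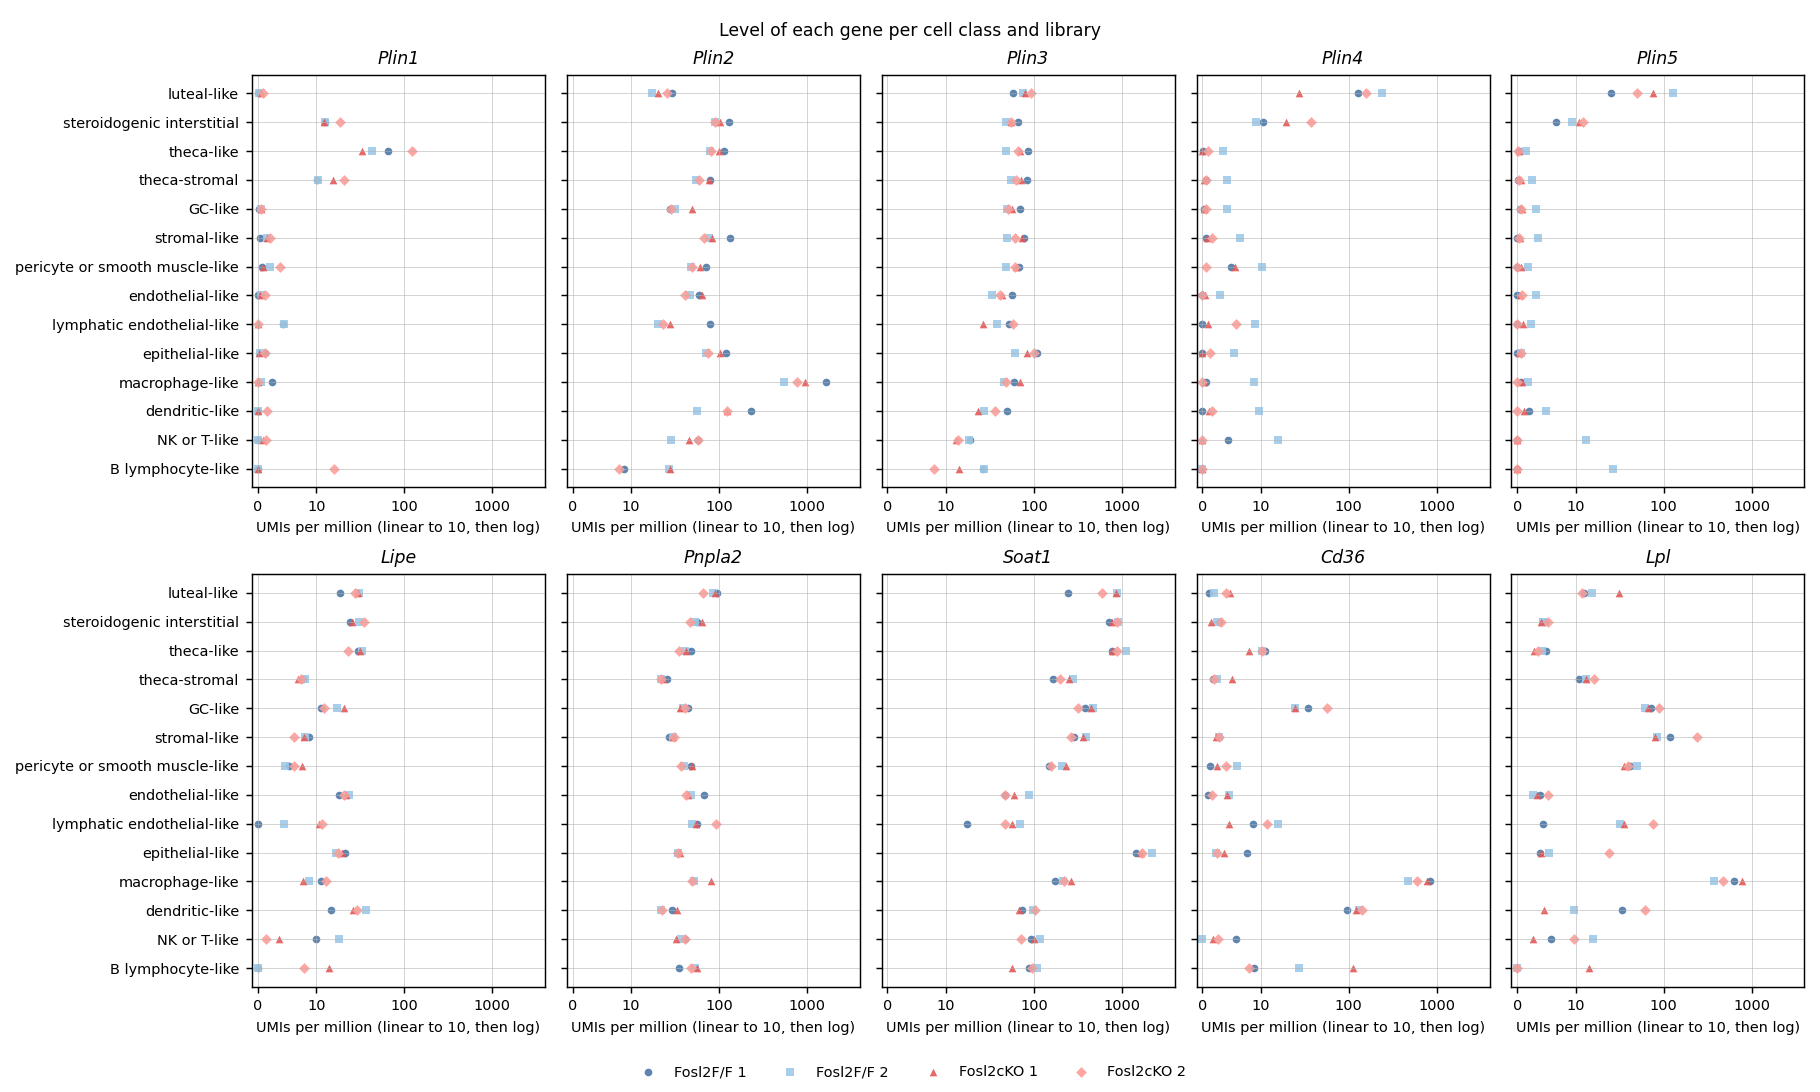
CPM of each of the 10 genes (1 panel each) in 14 cell classes (rows), with 1 point per library and a colour and shape for each library; the axis is linear to 10 CPM and logarithmic above. Plin4 and Plin5 lie farthest right in luteal-like cells (means 138.9 and 69.9 CPM), Plin1 in theca-like cells (66.0 CPM), and Plin2, Cd36 and Lpl in macrophage-like cells (981.5, 669.4 and 565.5 CPM).

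Plin1, the coat protein of adipocytes and steroidogenic cells that gates hormone-stimulated lipolysis, stood at 66.0, 43.5, 32.8 and 121.9 CPM in theca-like cells (mean 66.0 ± 39.8, SD, n = 4). All libraries lay above the highest value of the next class, theca-stromal cells (Enpep and Asb4 positive), at 10.3, 10.4, 15.6 and 20.8 CPM, and the means differed 4.63-fold. Steroidogenic interstitial cells, at 12.6, 12.5, 12.3 and 18.6 CPM, were not separable from theca-stromal cells. In luteal-like cells Plin1 did not exceed 0.97 CPM in any library, and in GC-like cells it was between 0.31 and 0.49 CPM. Theca-like cells held a mean of 47.6% of the Plin1 UMIs of a library (range 20.4% to 66.8%). In Fosl2cKO 1 they held less than steroidogenic interstitial (40.1%) and theca-stromal cells (29.9%). With every cell thinned to 2000 UMIs, 11.5% of theca-like cells had a Plin1 UMI (range 6.92% to 19.6%) against 0.0893% of NK or T-like cells, the class taken as the comparison for free RNA. Whether the UMIs of the 10 genes in NK or T-like cells were free RNA was not tested. The genes with class profiles closest to Plin1, by Pearson's r over the 14 class means among 11151 genes, were Gsta2 (r = 0.97), Serpina3c (0.93) and Sct (0.93). The 14 points share the 4 libraries and their depth, and for a gene high in few classes r rests mainly on those classes.

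Plin2, the coat protein found on droplets of most cells, was 1654, 556.0, 947.4 and 768.5 CPM in macrophage-like cells (mean 981.5 ± 476). The next class, dendritic-like cells, stood at 230.8, 55.9, 124.0 and 123.4 CPM, below every macrophage-like value, and the means differed 7.35-fold. Among the steroidogenic classes Plin2 was 130.8, 90.1, 101.5 and 89.2 CPM in steroidogenic interstitial cells and 113.5, 79.3, 99.9 and 81.7 CPM in theca-like cells, and these ranges overlapped each other and those of epithelial-like and stromal-like cells. Luteal-like cells had less, 29.2, 17.5, 20.2 and 25.4 CPM, and the range lay wholly below those of theca-like and interstitial cells. After thinning, 62.2% of macrophage-like cells had a Plin2 UMI (range 51.9% to 71.0%) against 7.91% of NK or T-like cells. The profiles most like Plin2 were those of Il10 (r = 0.93), Lipa, the lysosomal acid lipase (0.90), and Prdx5 (0.90).

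Plin3, a coat protein that also occurs in the cytosol and on endosomes, was detected in all 14 classes. Its class means ran from 15.9 CPM in NK or T-like cells to 88.0 CPM in epithelial-like cells, and each of the 5 highest classes overlapped the next. Luteal-like cells, the second in order, stood at 58.2, 74.3, 78.3 and 92.4 CPM. In thinned cells the share with a Plin3 UMI was 16.9% in epithelial-like cells and 2.07% in NK or T-like cells. Tspan31 had the profile most like that of Plin3 (r = 0.93).

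Plin4, which coats droplets early in their growth and is abundant in adipocytes, was 128.9, 240.9, 27.1 and 158.7 CPM in luteal-like cells (454, 3895, 184 and 981 UMIs, mean 138.9 ± 88.3 CPM). Fosl2cKO 1 was the low library, and it lay below the highest steroidogenic interstitial value, so that these classes overlapped. Interstitial cells stood at 10.5, 9.19, 19.5 and 37.3 CPM, and the class means differed 7.27-fold. All other named classes had means of 5.36 CPM or less. The unnamed cluster stood at 53.5, 367.1, 35.7 and 69.85 CPM, on 2, 40, 3 and 5 UMIs. Luteal-like cells held 81.8%, 88.4%, 33.4% and 73.1% of the Plin4 UMIs of the libraries, and steroidogenic interstitial cells held 57.9% in Fosl2cKO 1.

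Plin5, a coat protein of tissues with high fatty acid oxidation that tethers droplets to mitochondria, was 25.3, 129.3, 75.8 and 49.2 CPM in luteal-like cells (mean 69.9 ± 44.7). Every luteal-like value lay above the steroidogenic interstitial values of 6.60, 9.38, 10.7 and 12.0 CPM, and the means differed 7.22-fold. In all other named classes the mean was 6.69 CPM or less. The unnamed cluster stood at 0, 27.5, 71.3 and 27.9 CPM, on 0, 3, 6 and 2 UMIs. Luteal-like cells held 56.0% to 86.5% of the Plin5 UMIs of a library. After thinning, 16.8% of luteal-like cells had a Plin4 UMI (range 3.64% to 31.4%) and 12.1% a Plin5 UMI (range 6.40% to 19.7%), against 1.14% and 0.676% of NK or T-like cells. These NK or T-like means rest on few cells. Plin4 was found in 3 of 161, 1 of 37, 0 of 280 and 0 of 174 of them, and Plin5 in 0, 1, 0 and 0. The order of the libraries differed between the neighbours, since Fosl2cKO 1 was the lowest library for Plin4 and the second highest for Plin5. The profiles most like Plin4 were those of Ptgfr, the prostaglandin F receptor of luteal cells, Tmem56 and Bhmt (each r = 0.98), and those most like Plin5 were Ccn5 (0.99), Asgr1 (0.98) and Slco1a5 (0.96). Ptgfr is also one of the markers by which luteal-like clusters were named. Levels entered r as log2(CPM + 10), and most class means of Plin4 and Plin5 were below 10 CPM. Their r values thus rest mainly on the luteal-like class.

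**Figure D2:**
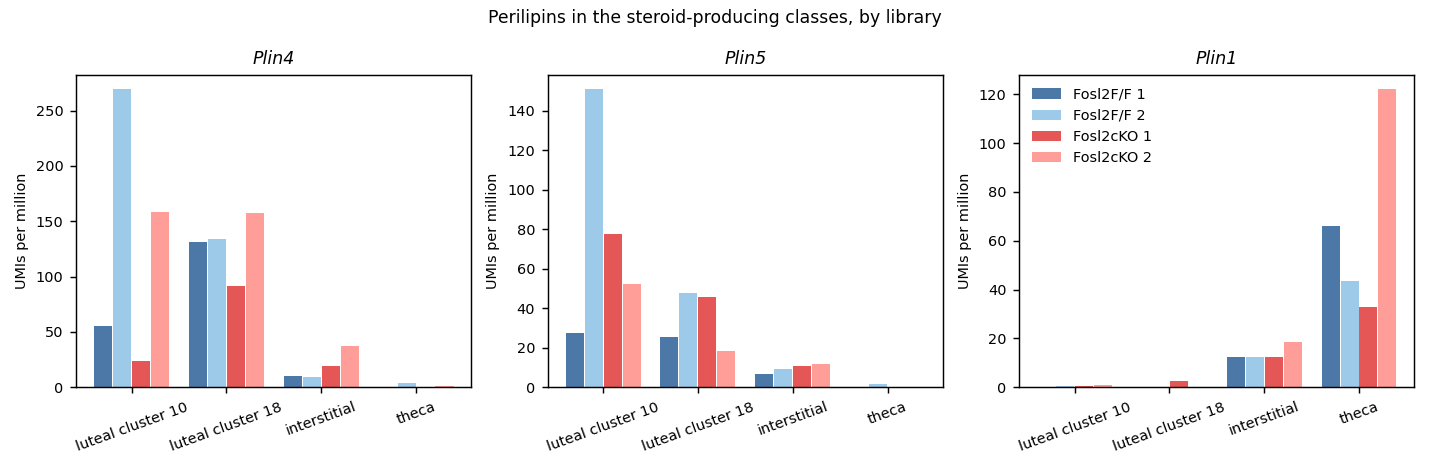
CPM of Plin4, Plin5 and Plin1 in the luteal-like clusters 10 and 18, steroidogenic interstitial cells and theca-like cells, with 1 bar per library on an axis that starts at 0. Plin4 and Plin5 are highest in the luteal-like clusters (up to 269.1 and 150.7 CPM, both in Fosl2F/F 2), and Plin1 is highest in theca-like cells (32.8 to 121.9 CPM).

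Luteal-like cells comprised a pair of clusters, and the libraries drew on them unequally. The larger, cluster 10, held 58, 836, 291 and 235 cells and the smaller, cluster 18, held 112, 347, 14 and 32 cells. The 58 cells of Fosl2F/F 1 had a median of 1524.5 UMIs. Plin4 was 55.4, 269.1, 23.3 and 158.8 CPM in the larger cluster and 131.3, 133.6, 91.6 and 157.8 CPM in the smaller one. The low Plin4 of Fosl2cKO 1 thus rested on its larger cluster, whereas its 14 cells of the smaller cluster fell below the other libraries by less. Plin5 was 27.7, 150.7, 77.5 and 52.5 CPM in the larger cluster and 25.2, 47.8, 45.8 and 18.3 CPM in the smaller one. Soat1 was 221.5, 1022, 895.8 and 630.3 CPM in the larger cluster and 245.2, 376.0, 363.6 and 339.0 CPM in the smaller one. Plin5 and Soat1 were higher in the larger cluster in all libraries but Fosl2F/F 1, whose larger cluster held only 3 Plin5 and 24 Soat1 UMIs, too few to order the clusters there.

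Akr1c18, the enzyme that inactivates progesterone in regressing corpora lutea, gave another division of the luteal-like cells, which is not independent of the clusters because Akr1c18 was the leading gene of the smaller one. Of the luteal-like cells with at least 2000 UMIs, 68 of 125 in Fosl2F/F 1 and 156 of 1145 in Fosl2F/F 2 had an Akr1c18 UMI after thinning, against 3 of 302 in Fosl2cKO 1 and 0 of 262 in Fosl2cKO 2. Plin4 was 110.9 CPM in cells with and 158.6 CPM in cells without an Akr1c18 UMI in Fosl2F/F 1, and 163.0 and 251.9 CPM in Fosl2F/F 2. Plin5 was 23.7 and 28.0 CPM in Fosl2F/F 1, on 49 and 39 UMIs, and 64.6 and 138.4 CPM in Fosl2F/F 2. Plin4 was thus lower in the cells with Akr1c18 in both control libraries, and Plin5 in Fosl2F/F 2, the UMIs of Fosl2F/F 1 being too few to order its cells for Plin5. Soat1 did not keep 1 direction, at 254.8 against 231.8 CPM in Fosl2F/F 1 and 456.1 against 948.1 CPM in Fosl2F/F 2. Between the Akr1c18-negative luteal-like cells of the libraries, Plin4 ranged from 27.3 CPM in Fosl2cKO 1 to 251.9 CPM in Fosl2F/F 2. These cells were not separated by cluster, and the part of the clusters in this range was not tested.

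Lipe had no named class that stood apart. In the unnamed cluster it was 80.2, 0, 35.7 and 55.9 CPM, on only 3, 0, 3 and 4 UMIs. It stood at 30.1, 33.3, 31.1 and 23.0 CPM in theca-like cells, at 24.3, 30.7, 25.4 and 34.5 CPM in steroidogenic interstitial cells and at 18.7, 30.9, 29.6 and 27.5 CPM in luteal-like cells. These 3 steroidogenic classes overlapped one another and dendritic-like cells (mean 26.7 CPM, as in luteal-like cells). Endothelial-like cells had a mean of 21.2 CPM, GC-like cells 15.4 CPM, and stromal-like and theca-stromal cells 7.70 and 7.54 CPM. After thinning, the share with a Lipe UMI was 6.31% in dendritic-like, 5.47% in steroidogenic interstitial, 5.44% in endothelial-like and 4.66% in luteal-like cells, and 5.37% of theca-like cells had one (range 3.36% to 7.19%) against 1.98% of NK or T-like cells (range 0.575% to 5.41%). These ranges overlapped through Fosl2F/F 2, where the NK or T-like share was 2 of 37 cells. The levels did not overlap, NK or T-like cells being between 1.37 and 18.3 CPM and theca-like cells between 23.0 and 33.3 CPM. In B lymphocyte-like cells Lipe had no UMI in either control library and 1 UMI in each of the others, too few to call it present.

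Pnpla2 was 93.7, 86.6, 90.8 and 66.2 CPM in luteal-like cells (mean 84.3 ± 12.4), the highest class mean. Lymphatic endothelial-like cells followed (mean 63.3 CPM) with an overlapping range, and then macrophage-like cells (58.0 CPM), steroidogenic interstitial cells (54.8 CPM) and endothelial-like cells (50.5 CPM). The lowest of the 14 classes was theca-stromal cells at 23.1 CPM. After thinning, 13.6% of luteal-like cells had a Pnpla2 UMI against 6.54% of NK or T-like cells.

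Soat1, the acyltransferase that makes cholesteryl esters for storage, was 1449, 2187, 1656 and 1684 CPM in epithelial-like cells, above every value of the next class, with a ratio of means of 1.96. Theca-like cells stood at 784.6, 1128, 775.2 and 874.5 CPM and steroidogenic interstitial cells at 707.6, 902.9, 770.5 and 886.6 CPM. Luteal-like cells, at 244.5, 887.3, 866.8 and 601.9 CPM, lay below every value of both classes in Fosl2F/F 1 and Fosl2cKO 2. These 3 steroidogenic classes had overlapping ranges. Soat1 was also detected in GCs, at 515.1, 697.1, 746.1 and 502.5 CPM in cumulus-like GCs and 591.5, 591.3, 458.9 and 468.3 CPM in mural-like GCs, whereas endothelial-like (60.1 CPM) and lymphatic endothelial-like cells (47.4 CPM) had the lowest means. A Soat1 UMI was found in 89.6% of thinned epithelial-like cells and in 12.1% of NK or T-like cells.

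Cd36 was 838.0, 477.0, 770.6 and 592.1 CPM in macrophage-like cells (mean 669.4 ± 165), 5.47 times the mean of dendritic-like cells (122.3 CPM) with no overlap. B lymphocyte-like cells (mean 38.9 CPM) rested on 1 library at 112.2 CPM, and GC-like cells followed at 34.6, 24.3, 24.7 and 56.0 CPM. Because GC-like cells were the most numerous, they held a mean of 50.8% ± 16.8 of all Cd36 UMIs and macrophage-like cells 40.8% ± 16.1 (SD, n = 4). In Fosl2cKO 1 the order was turned, with 29.2% in GC-like and 63.5% in macrophage-like cells. Endothelial-like cells, in which Cd36 is known from capillaries of other tissues, had 2.81 CPM, close to the 2.58 CPM of NK or T-like cells. The profiles most like Cd36 were Siglece (r = 0.97), Adgre4 and Clec4a3, all genes of myeloid cells.

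Lpl was 626.9, 378.8, 780.6 and 475.6 CPM in macrophage-like cells (mean 565.5 ± 176), 4.34 times the mean of stromal-like cells, which stood at 118.6, 83.3, 79.1 and 240.7 CPM. GC-like cells had 70.9, 60.8, 65.6 and 87.9 CPM and held a mean of 56.3% of the Lpl UMIs. Theca-like cells (3.89 CPM) and endothelial-like cells (3.81 CPM) had little Lpl. The share of thinned macrophage-like cells with a UMI was 42.7% for Cd36 and 35.2% for Lpl, against 0.233% and 2.17% of NK or T-like cells.

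Macrophage-like cells were also split by whether they had a Plin2 UMI. In thinned cells, Cd36 was found in 57.6%, 45.9%, 51.7% and 46.3% of cells with a Plin2 UMI and in 24.1%, 30.2%, 35.6% and 26.7% of cells without one. Lpl was found in 49.2%, 36.7%, 42.03% and 43.5% of cells with Plin2 and in 16.7%, 25.8%, 32.2% and 13.95% of cells without. Both shares were higher in the cells with Plin2 in all 4 libraries. In luteal-like cells, Plin5 was found in 11.8%, 20.1%, 18.2% and 16.3% of cells with a Plin4 UMI and in 5.56%, 19.6%, 11.7% and 8.92% of cells without. The cells with both were only 2 of 17, 72 of 359, 2 of 11 and 8 of 49 of those with Plin4, so Fosl2F/F 2 alone had many such cells, and its shares were nearly equal. Cells of a library are not replicates, and these shares are given without a test.

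GCs were further divided into classes by marker genes, and the uptake genes differed between them. Cd36 was 69.8, 67.0, 27.6 and 111.9 CPM in atretic-like GCs, 12.9, 13.2, 33.3 and 30.5 CPM in mural-like GCs and 13.5, 9.06, 5.91 and 5.46 CPM in cumulus-like GCs. Atretic-like GCs lay above cumulus-like GCs in every library, and their range overlapped that of mural-like GCs. Lpl was 106.7, 66.4, 74.4 and 97.3 CPM in atretic-like GCs, above mural-like GCs (34.5, 39.4, 48.9 and 55.7 CPM) and cumulus-like GCs (53.2, 44.0, 52.5 and 39.5 CPM) without overlap. This level was not particular to atretic-like GCs (mean 86.2 CPM). Lpl means were 81.9 CPM in mitotic-like GCs, 73.4 CPM in glycolytic antral GCs and 86.0 CPM in an unnamed GC cluster led by Cited1 and Amh. Cd36 means there were 32.8, 41.1 and 37.7 CPM, with ranges that overlapped that of atretic-like GCs. Plin2 was 71.4, 61.7, 71.4 and 58.7 CPM in cumulus-like GCs, 48.9, 41.0, 79.0 and 45.8 CPM in atretic-like GCs and 15.02, 20.7, 93.4 and 11.1 CPM in mural-like GCs, where Fosl2cKO 1 alone was high. Summed macrophage markers stood between 6.59 and 21.8 CPM in mural-like, cumulus-like and atretic-like GCs (5 to 7 of 7 markers detected). Their part in the Cd36, Lpl and Plin2 levels was not tested.

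**Figure D3:**
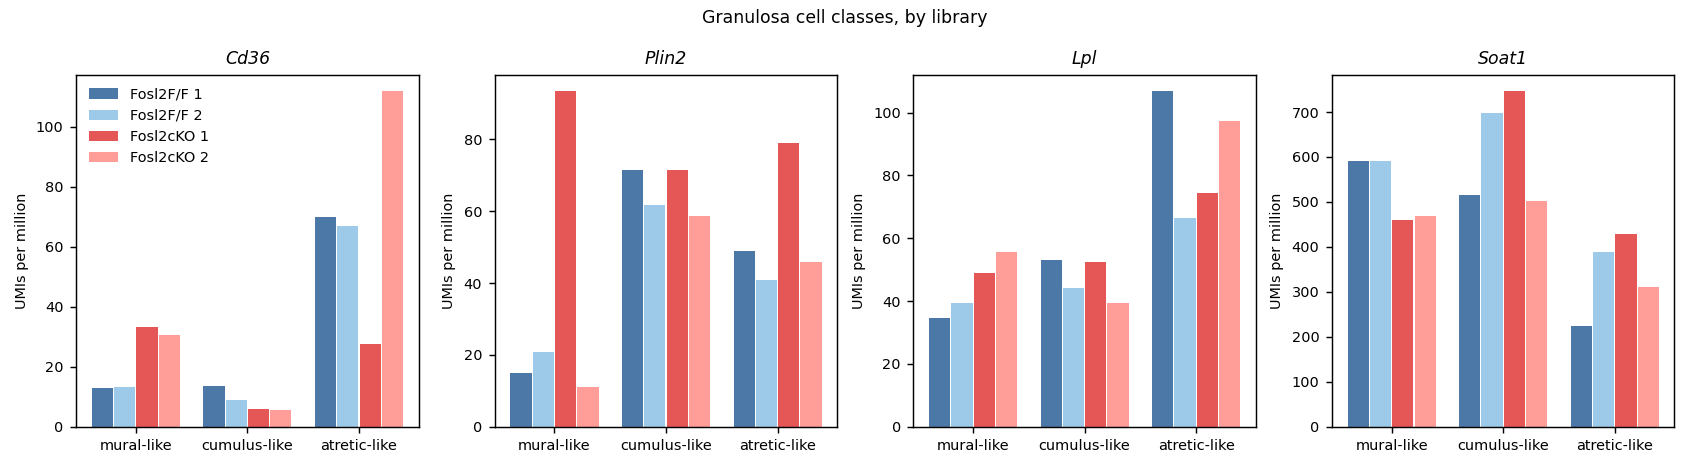
CPM of Cd36, Plin2, Lpl and Soat1 in mural-like, cumulus-like and atretic-like GCs, with 1 bar per library on an axis that starts at 0. In mural-like GCs, Plin2 is high only in Fosl2cKO 1 (93.4 CPM), and Cd36 is higher in both libraries labelled Fosl2cKO (33.3 and 30.5 CPM) than in the controls (12.9 and 13.2 CPM).

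The comparison of the conditions asked whether these genes differed, within a class, between the libraries labelled Fosl2cKO and the controls. UMIs were summed per class and library and tested with edgeR's quasi-likelihood test over all genes of the class, a gene being called when its adjusted p was below 0.1 and its log2 fold change beyond 0.25 either way. With 2 libraries a condition, the smallest p of an exact permutation test is 0.33. Over 10 classes and 80 tests of the 10 genes, edgeR called 0. DESeq2, run without the filter on low counts and so on 100 tests of these genes, called 2, Plin4 in steroidogenic interstitial cells and Cd36 in mural-like GCs. An unadjusted p under 0.05 was found in 4 of the 80 tests (5.0%), close to the 5.2% of all 130235 tests in these classes. These 4 were Plin4 in steroidogenic interstitial and stromal-like cells and Cd36 in mural-like and cumulus-like GCs. The mural-like, cumulus-like and atretic-like GCs are parts of the GC-like class, so the 80 tests are not independent. Log2 fold changes are Fosl2cKO minus Fosl2F/F throughout. Where the groups of libraries did not overlap, this is read against the share of all genes for which they did not.

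In GC-like cells none of 10 genes was called (0.00579% of all genes were) and none was separated between the conditions, against 31.7% of all genes. Fitted log2 fold changes of the 7 genes at 5 CPM or more in a condition lay between -0.20 for Soat1 and 0.43 for Cd36. In luteal-like cells none of 9 genes was called, against 0.0157% of all genes. Plin4 had a log2 fold change of -1.13 (SE 0.77, adjusted p = 0.596) and Plin5 of -0.43 (SE 0.70, adjusted p = 0.816), and the libraries of the conditions overlapped for both. The Plin4 fold was -0.36 without Fosl2cKO 1, -0.59 without Fosl2F/F 2 and -2.88 without Fosl2cKO 2, and was called in none of these. The Plin5 fold rested on Fosl2F/F 2, without which it was 1.20. Plin3, at 58.2 and 74.3 CPM in the controls, 78.3 CPM in Fosl2cKO 1 and 92.4 CPM in Fosl2cKO 2, did not overlap (log2 fold change 0.23, SE 0.28, adjusted p = 0.745), as did not 47.6% of all genes. Cd36, which was below 5 CPM there (1.14 and 2.04 against 4.71 and 4.04 CPM), was the only other of the 9 genes that did not overlap. In the larger luteal-like cluster alone 0 of 9 genes were separated or called. Of all 12389 genes tested there, 4111 were separated upward and 1717 downward, and 2 were called. Plin3 stood at 46.1, 82.4, 75.8 and 95.7 CPM in that cluster (5 UMIs in Fosl2F/F 1). Its log2 fold change there was 0.21 (SE 0.59, edgeR adjusted p = 0.974). In the luteal-like class as a whole, Pnpla2 was -0.32 (SE 0.30, edgeR adjusted p = 0.677).

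Whether the condition acted differently in luteal-like and GC-like cells was tested by the interaction of class and condition, with library as a block. None of the 10 genes was called, and 0% of 16994 genes were (1150 had an unadjusted p under 0.05), DESeq2 not being run on this test. Plin5 had the lowest p of the 10 genes, with a difference of log2 fold changes of 0.79 (SE 0.34, adjusted p = 0.745), luteal-like minus GC-like. Plin5 in GC-like cells was only 0.46, 3.24, 0.80 and 0.66 CPM, with the highest value in Fosl2F/F 2, and the part of free RNA in this difference was not tested.

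In theca-like cells none of 8 genes was called (0.0395% of all genes were). Plin1 was 0.44 on the log2 scale (SE 0.48, adjusted p = 0.9998), with Fosl2cKO 1 the lowest and Fosl2cKO 2 the highest of the 4 libraries, and it was -0.83 without Fosl2cKO 2. Cd36, at 11.1 and 10.25 CPM in the controls and 8.03 and 10.17 CPM in Fosl2cKO 1 and 2, was separated by a narrow margin, as was Lpl below 5 CPM (4.95 and 4.25 against 2.89 and 3.48 CPM), which makes 2 of 8 genes, and 30.5% of all genes were separated. Lipe was -0.32 (SE 0.29, adjusted p = 0.9998) and Soat1 -0.29 (SE 0.34, adjusted p = 0.9998). In steroidogenic interstitial cells none of 10 genes was called by edgeR (0.126% of all genes were). Plin4, at 10.5 and 9.19 CPM in the controls and 19.5 and 37.3 CPM in Fosl2cKO 1 and 2, had a log2 fold change of 1.49 (SE 0.33, adjusted p = 0.205), and DESeq2 called it (adjusted p = 0.0625, with 0.222% of all genes called). edgeR called it without Fosl2F/F 2 (1.35), when 2.54% of all genes were called, and without Fosl2cKO 1 (1.89), when 0.567% were. It was not called without Fosl2F/F 1 or without Fosl2cKO 2 (0.98). Plin5 was also separated, at 6.60 and 9.38 against 10.7 and 12.0 CPM, and 28.9% of all genes were separated in this class. The 7 luteal markers summed to 4735, 3425, 3563 and 4891 CPM in interstitial cells (6 to 7 of 7 detected). Star is in this list and also among the markers of interstitial cells, so the sum does not measure luteal RNA alone. The part of luteal RNA in the Plin4 fold was not tested.

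In macrophage-like cells none of 7 genes was called, against 0.412% of all genes. Plin2 had a log2 fold change of -0.41 (SE 0.44, adjusted p = 0.928) that rested on single controls, since it was 0.68 without Fosl2F/F 1 and -1.02 without Fosl2F/F 2, where it was called (adjusted p = 0.000333) along with 12.7% of all genes, 1309 against 40 with all libraries. Cd36 was 0.02 (SE 0.34, adjusted p = 0.997) and Lpl 0.30 (SE 0.36, adjusted p = 0.936). Without Fosl2F/F 2 these were -0.37 and -0.06, and without Fosl2cKO 1 they were -0.24 and -0.17. Soat1 was separated, at 175.8 and 212.2 against 266.1 and 221.6 CPM, and 34.9% of all genes were. In stromal-like cells none of 9 genes was called (0.185% of all genes were), Plin4 being there at 0.58, 6.47, 0.76 and 1.64 CPM, while Lipe was lower (8.71 and 8.09 against 7.88 and 6.12 CPM) and Pnpla2 higher (27.3 and 29.9 against 30.2 and 30.4 CPM) without overlap, as in 28.6% of all genes. In endothelial-like cells none of 6 genes was called (0.177% of all genes were). Pnpla2, at 67.5 and 47.7 against 44.3 and 42.4 CPM, was separated there, as were 28.6% of all genes.

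Among GC classes, Cd36 had fitted folds of opposite sign. In mural-like GCs it was 12.9 and 13.2 CPM in the controls and 33.3 and 30.5 CPM in Fosl2cKO 1 and 2, a log2 fold change of 1.24 (SE 0.23, adjusted p = 0.473) that DESeq2 called (adjusted p = 0.0929, with 0.302% of all genes called). edgeR called it without Fosl2cKO 2 (1.29), when 1.31% of all genes were called, and not when any other library was left out (1.17 to 1.23). In cumulus-like GCs it was 13.5 and 9.06 against 5.91 and 5.46 CPM, a log2 fold change of -1.04 (SE 0.34, adjusted p = 0.772) that was -0.68 without Fosl2F/F 1. The difference between these folds, tested as an interaction with library as a block in a test added after the data were seen, was 2.27 (adjusted p = 0.379), and 0% of all genes were called in it. Leaving out a library gave a call in 2 of 4 cases. Without Fosl2F/F 2 it was 2.53 (adjusted p = 0.0401, 0.24% of all genes called) and without Fosl2cKO 2 it was 2.31 (adjusted p = 0.0105, 0.551% of all genes called). It was not called without Fosl2F/F 1 (1.92, adjusted p = 1.0) or without Fosl2cKO 1 (2.25, adjusted p = 0.12, 0.0497% of all genes called). Summed macrophage markers were 9.58, 18.9, 9.02 and 8.80 CPM in mural-like GCs and 8.76, 21.8, 20.1 and 6.59 CPM in cumulus-like GCs, and their part in the Cd36 folds was not tested. In mural-like GCs none of 7 genes was called by edgeR (0.0159% of all genes were) and 4 were separated, Cd36 and Lpl upward and Pnpla2 and Soat1 downward, against 31.8% of all genes.

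Of the 7 followed genes tested in mural-like GCs, Plin2 had the highest fitted log2 fold change, 1.53 (SE 0.77, adjusted p = 0.999), and it rested on Fosl2cKO 1. Without that library it was -0.72, and without Fosl2cKO 2, when 1.31% of all genes were called, it was 2.35 and was called. In cumulus-like GCs none of 7 genes was called (0.00761% of all genes were) and Cd36 alone was separated (30.6% of all genes were). All 7 fitted log2 fold changes lay between -1.04 and -0.01. Apart from Cd36 they lay between -0.18 and -0.01, each smaller in size than its SE. The median of all genes tested there was -0.01, and the share of all genes below 0 was not counted. In atretic-like GCs none of 7 genes was called (0.00754% of all genes were). Lipe was separated there, at 8.80 and 11.5 against 21.5 and 13.6 CPM (log2 fold change 0.72), as were 34.6% of all genes.

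**Figure D4:**
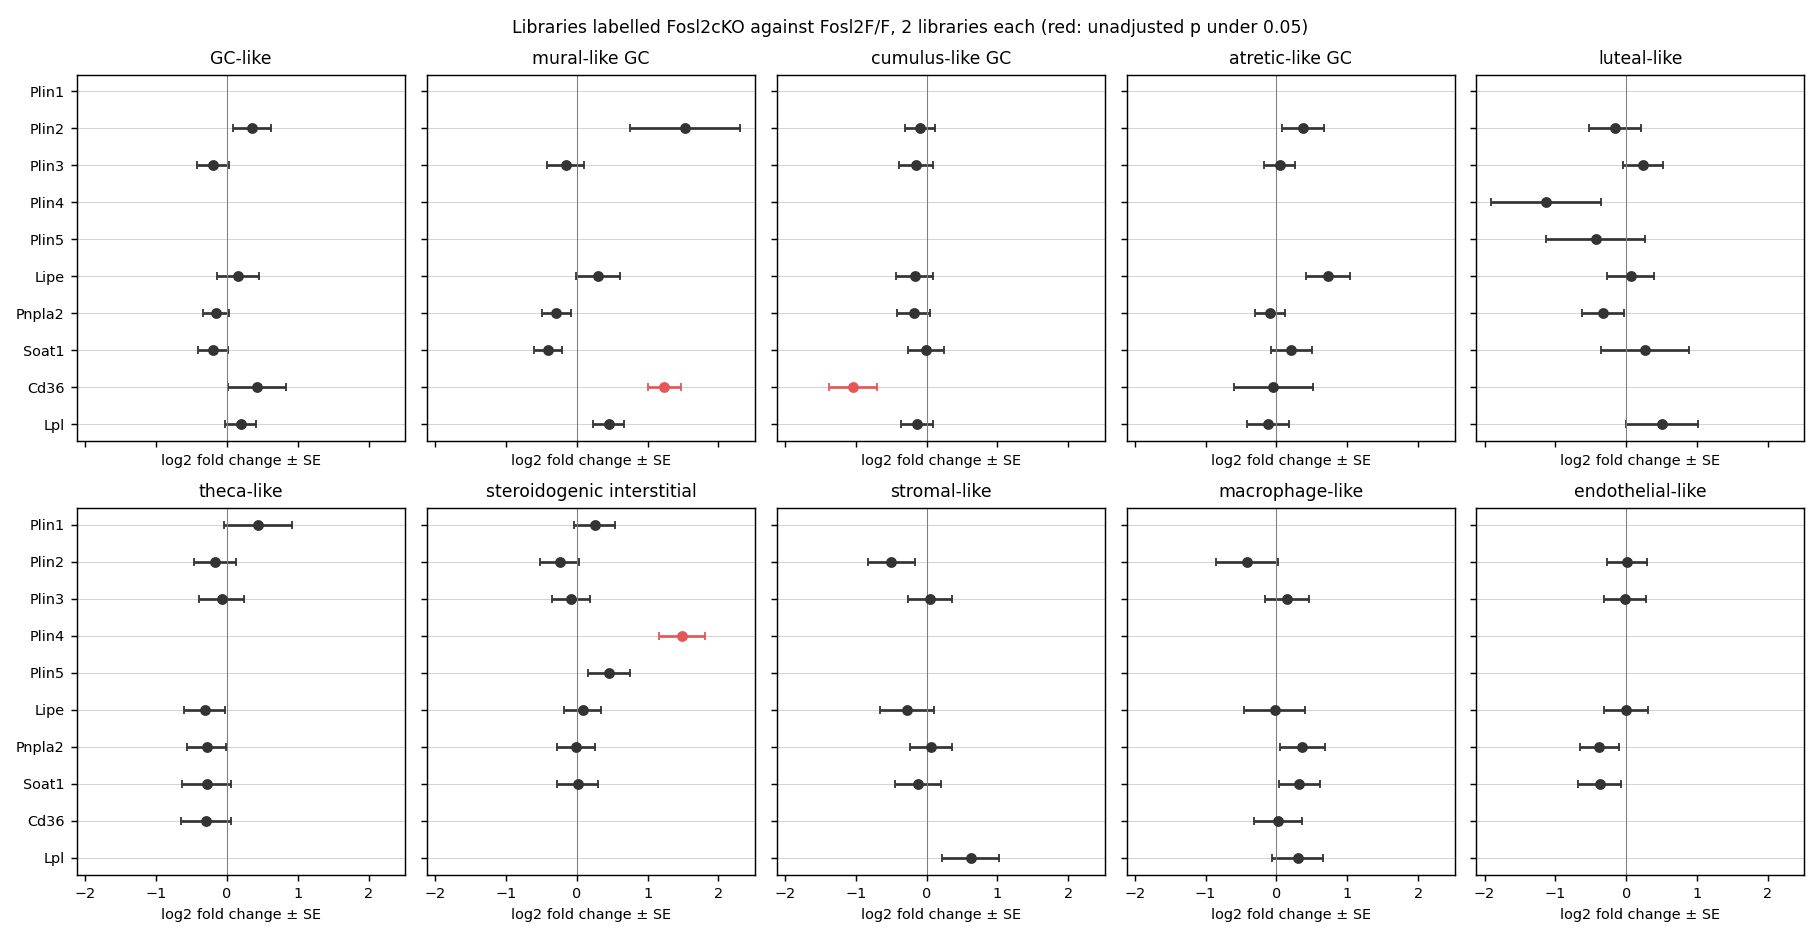
Log2 fold change (Fosl2cKO minus Fosl2F/F, edgeR) of each gene with at least 5 CPM in a condition of the class, in 10 classes, with SE as error bars and 2 libraries a condition; red marks an unadjusted p under 0.05. The 3 red points are Plin4 in steroidogenic interstitial cells (1.49), Cd36 in mural-like GCs (1.24) and Cd36 in cumulus-like GCs (-1.04), and edgeR called none of the genes.

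The other lipid genes were taken from 4 lists with 51 genes, for droplet formation (14), lipase cofactors and other hydrolases (9), ester synthesis (13) and lipoprotein and fatty acid uptake (15). Over the 10 classes a single gene of these lists was called, Mgll (monoacylglycerol lipase, the last step of triacylglycerol breakdown), in macrophage-like cells, the class with the highest share of all genes called (0.412%). Its controls stood at 34.7 and 29.8 CPM, while Fosl2cKO 1 had 177.7 CPM and Fosl2cKO 2 had 89.0 CPM (log2 fold change 2.05, SE 0.38, edgeR adjusted p = 0.0555). The call was lost with doublets kept (2.23, adjusted p = 0.239) and without Fosl2cKO 1 (1.39, adjusted p = 0.232). In luteal-like cells, 9, 7, 12 and 13 genes of the lists were tested, 0 were called, and the list medians were -0.36, -0.28, -0.08 and -0.18, beside -0.02 for all genes. In theca-like cells the medians were -0.07, -0.13, 0.20 and -0.11 with 0 called, and in steroidogenic interstitial cells 0.00, 0.20, 0.26 and -0.15 with 0 called.

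By level, 12 genes of the lists had a mean of at least 200 CPM in a class, and the class in which each was highest varied. It was the macrophage-like class for 4 genes and the luteal-like class for 3. Scarb1, the HDL receptor that imports cholesteryl esters, was 1036, 2132, 1049 and 1263 CPM in luteal-like cells, with class means of 802.8 CPM in theca-like and 463.1 CPM in steroidogenic interstitial cells. Acsl4, which activates arachidonic acid, had a mean of 447.5 CPM and Lipg, endothelial lipase, a mean of 243.9 CPM in luteal-like cells. In macrophage-like cells the fatty acid binding proteins Fabp5 and Fabp4 had means of 3426 and 280.3 CPM, Lipa 378.9 CPM and the cholesteryl ester hydrolase Nceh1 214.7 CPM. The other 5 were each highest in another class, Fabp3 in epithelial-like cells (541.6 CPM), Mgll in endothelial-like cells (270.2 CPM), the lipin Lpin2 in cumulus-like GCs (263.1 CPM), the triacylglycerol synthase Dgat1 in NK or T-like cells (258.5 CPM), and the lipoprotein receptor Lrp1 in stromal-like cells (230.5 CPM).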

How the data were processed

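Each library was deposited by the authors as a matrix of raw counts (UMIs per gene and cell barcode) whose header names Cell Ranger 7.1.0 and the GRCm38 (mm10) genome, and the submitters' processing notes list Seurat 4.1.0. The study's methods describe removal of ambient RNA, and whether that step entered the deposited counts is not given in the sources used here, so free RNA may remain. All columns of counts were mapped to a library (0 left out). A barcode was kept as a cell with 500 genes or more, a total above 1000 UMIs, and shares below 10% for mitochondrial and 0.1% for hemoglobin genes, and the cells with the highest Scrublet scores (scanpy 1.11.5) were removed at 0.8% per 1000 cells. Libraries were normalised with sctransform 0.4.2, integrated in Seurat 5.3.0 (3000 features, of which 22 lipid genes were dropped, 30 dimensions) and clustered at resolution 0.8, GCs again at 0.5. Clusters were named from fixed markers, with limits on the score set after the clusters were seen. UMIs were summed per class and library and tested in R 4.3.3 with edgeR 4.0.16 (TMM, filterByExpr, quasi-likelihood, condition only, Benjamini-Hochberg over all genes), which was checked on simulated data, classes with under 20 cells in a library being left out (oocyte-like cells). Shares of cells were read after thinning to 2000 UMIs, which left out 4.23% to 20.3% of the cells of a library. Shallow classes could lose more, only 37 of 249 NK or T-like cells of Fosl2F/F 2 being kept. Every one of the 10 genes was named, with a fold only at a mean of at least 5 CPM in a condition, and other lipid genes only when called or at a mean of 200 CPM. Profiles were compared on log2(CPM + 10) over genes with at least 20 CPM in a class. Alternatives were DESeq2 1.42.0, other normalization, filters, clusters and cells, a replicate block, and leaving out each library. The genes and lists were chosen with earlier results of these data known. Gene positions came from GENCODE vM21. Precision is limited by 2 libraries a condition, and UMI sums of rare classes carry counting error.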

Additional observations from a re-analysis of the deposited data

Results flagged for a closer look

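Some genes had libraries that moved in opposite directions in different classes, all libraries of a condition lying on 1 side of the controls in each. These were picked because they moved oppositely, folds are log2 (Fosl2cKO minus Fosl2F/F), and none of the single folds was called by edgeR. Cd36 was -1.04 in cumulus-like GCs (-0.68 without Fosl2F/F 1) and 1.24 in mural-like GCs, and this difference alone was tested (adjusted p = 0.379 by edgeR's interaction test). Cd36 was also 1.24 in mural-like GCs against -0.29 in theca-like cells. Lipe was 0.72 in atretic-like GCs and -0.28 in stromal-like cells. Pnpla2 was -0.38 in endothelial-like cells and -0.29 in mural-like GCs against 0.07 in stromal-like cells. Soat1 was 0.32 in macrophage-like cells and -0.40 in mural-like GCs. Apart from the first, the differences between classes were not tested. Of all genes, 28.6% to 47.6% were separated between the conditions in a class. How many of all genes were separated oppositely in different classes was not counted. Groups of 2 libraries were too small for a search for single outlying libraries.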

How the results depend on the processing

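For 14 folds, 162 of 184 values under the alternatives kept direction and side of the threshold, 12 became called and 10 changed direction. Of the 10 genes, without the filter on low counts edgeR called 1, Plin4, in each of luteal-like, steroidogenic interstitial and macrophage-like cells and cumulus-like and atretic-like GCs, and 2, Plin2 and Cd36, in mural-like GCs. Of all genes, 1073 of 22175 were then called in luteal-like, 240 of 22548 in steroidogenic interstitial and 286 of 18843 in macrophage-like cells. The counts were 296 of 22203 in mural-like, 232 of 22332 in cumulus-like and 291 of 22203 in atretic-like GCs. With the filter, the Plin4 fold was -1.13 in luteal-like and 1.49 in interstitial cells. Plin4 was 4.14 and 7.22 CPM in cumulus-like and atretic-like GCs of Fosl2F/F 2, and at most 0.48 and 0.44 CPM in the other libraries. DESeq2 called 1 of the 10 genes in interstitial cells (Plin4) and 1 in mural-like GCs (Cd36). Leaving out a library in turn gave 0 to 1 calls in interstitial cells (Plin4) and macrophage-like cells (Plin4 without Fosl2F/F 1, with 226 of 10426 genes called and Plin4 at 8.77 CPM in Fosl2F/F 2 and 0 to 0.63 CPM in the other libraries, and Plin2 without Fosl2F/F 2) and 0 to 2 in mural-like GCs (Plin2 and Cd36 without Fosl2cKO 2), the lone library left in a condition being assumed to vary like the others. Deviations of same-numbered libraries correlated between -0.243 and 0.118 in the 10 classes, so the replicate numbers were not taken as pairs. A replicate block called 0 of the 10 genes in every class, and with it 0 to 267 genes of all were called per class. A block with crossed numbers, added after the data were seen, called 1 of the 10 genes (Plin4) in interstitial cells and 11 to 199 genes of all. Over all genes the calls per class were 1 to 40 as reported, 26 to 462 with DESeq2, 168 to 1073 without the filter and 0 to 1309 without Fosl2F/F 2. Cd36 in macrophage-like cells was -0.0508 in cells over 2000 UMIs and -0.0311 with finer clusters. Folds without 1 library in turn ranged from -1.17 to 1.20 for Plin5 and -2.88 to -0.36 for Plin4 in luteal-like cells, -0.83 to 1.08 for Plin1 in theca-like cells, -1.02 to 0.68 for Plin2, -0.37 to 0.57 for Cd36 and -0.17 to 0.79 for Lpl in macrophage-like cells, and -0.72 to 2.35 for Plin2 in mural-like GCs. Levels moved where doublets were kept and dendritic cells joined the macrophage-like cluster (Cd36 454.7 and Lpl 372.5 CPM). Without thinning, shares of cells with a UMI were higher, in theca-like cells 50.5% for Plin1 and 31.4% for Lipe, in luteal-like cells 48.2% for Plin4, 44.2% for Plin5 and 61.2% for Pnpla2, in macrophage-like cells 75.0% for Plin2, 53.3% for Cd36 and 46.0% for Lpl, and in epithelial-like cells 58.5% for Plin3 and 95.9% for Soat1. Coarser clusters gave no theca-like, interstitial or macrophage-like class and finer ones no theca-like class, and GC classes were not rebuilt for either. The cause of the other changes was not tested.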
